A study of Homo sapiens with 8 samples.

Results

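The SRC family kinases and the kinases next to them in the same pathway were followed here on RIP-chip arrays of A431 cells, a human cSCC (cutaneous squamous cell carcinoma) line. The 8 genes were YES1, SRC, FYN, LYN, FRK, PTK6, CSK and PTK2. The choice was by family and pathway, though with earlier results of these data known. They were found by the RefSeq accession of each probe, which gave 9 probes of the 58201 on the array and 8 of 22437 gene symbols. Of these genes, 7 had a probe well above background on all 8 arrays, as had 10961 genes in all, and the exception was FRK.

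A431 cells were transfected with 10 nM of miR-NC, a negative control miRNA mimic, or of miR-634, and were lysed at 24 h. RNA bound to AGO2, the Argonaute protein that carries miRNAs to mRNAs, was taken by RIP, and the input stood for total RNA, so that input and RIP with miR-NC and input and RIP with miR-634 made 4 groups. Each group had 2 one-color arrays, and the sources do not say whether the 2 came from separate transfections, so every p-value measures only the spread between these arrays. The sample labels give normal rabbit IgG as the antibody of the input arrays where the methods of the study speak of total RNA, and the arrays are treated here as input. A431 is a single line, and no second line was measured.

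SRC family kinases are membrane-anchored tyrosine kinases that relay signals from integrins and growth factor receptors. SRC, YES1 and FYN are found in most cell types, and LYN is best known from blood cells but is also made by epithelial tumors. CSK holds the family in check by phosphorylating a tyrosine in the tail of each kinase. PTK2, the focal adhesion kinase, is a partner that SRC binds and activates at adhesion sites, and FRK and PTK6 are more distant relatives that are typical of epithelial cells. A miRNA recruits AGO2 to mRNAs that pair with its seed, and more of a bound mRNA is then recovered with AGO2.

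The mature miRNA is shown because it is the only agent that differed between the cells, with its seed (bases 2 to 8) in capitals. It was read from RefSeq and lies at chr17:66787132-66787153 on the plus strand of GRCh38.p14.
hsa-miR-634: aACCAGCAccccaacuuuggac

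The reverse complement of this seed is UGCUGGU. No transcript sequence was used here, so whether the mRNAs of the 8 genes hold such a site was not examined.

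The arrays were of like quality within each group. On the input arrays 45.6% to 45.8% of the spots were well above background, against 33.6% and 34.5% for the RIP of miR-NC cells and 40.0% for both RIP arrays of miR-634 cells, and no spot was saturated. All 8 of the 8 markers of squamous carcinoma cells, such as KRT5 and TP63, were well above background on all 4 input arrays. So were 1 of 4 leukocyte markers (CD14), 2 of 3 endothelial markers (CDH5 and VWF), 1 of 3 melanocyte markers (PMEL) and 0 of 4 fibroblast markers. Input arrays lay in row 1 and RIP arrays in row 2 of 1 slide, so slide row and kind of RNA cannot be told apart. Slide columns 1 and 2 held miR-NC and columns 3 and 4 held miR-634, so the same is true of column and miRNA.

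Levels are log2 intensities relative to the array's 75th percentile, so that 0 is the level of that percentile, and amounts of RNA per cell cannot be read from them. Whether groups of arrays overlap is stated only to describe a gene's readings, and was not counted over all measured genes. Enrichment is the log2 ratio of RIP to input in 1 kind of cell. The fold change of enrichment is how far that log2 ratio in miR-634 cells exceeds the ratio in miR-NC cells, and limma tested it over all 10961 measured genes. YES1 is one of the genes that the study picked as miR-634 targets, from these same arrays and from protein data, so its values are given as a description without a test, and calls are counted over the other 6 measured genes.

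After miR-634, more of the mRNAs of CSK, FYN and LYN was recovered with AGO2 relative to input, and less of PTK2 mRNA, although PTK2 stood above 0 with the arrays scaled to spike-in controls. Of the 6 tested genes, 3 rose in enrichment (CSK 2.06-fold, FYN 1.62-fold and LYN 1.49-fold), 2 fell (PTK2 to 0.673-fold and PTK6 to 0.746-fold by its brighter probe) and SRC did not pass the test. By its dimmer probe PTK6 rose (log2 0.38, adjusted p = 0.0060 in a limma fit over probes). Among all measured genes 28.1% rose and 43.1% fell, with a median of -0.22 on the log2 scale. YES1 stood at 1.84-fold. In the input 0 of the 6 tested genes changed by limma, against 23.7% of all measured genes in either direction, and 0 had an unadjusted p under 0.05. The methods' t-test called 0 as well, against 3.13% of all measured genes. The study names this test for its statistics in general, while for these arrays it describes a fold cutoff. By limma the 1266 genes that rose and 1330 that fell in the input became 395 and 549 without miR-NC input replicate 1, 513 and 635 without replicate 2, 445 and 687 without miR-634 input replicate 1, and 445 and 614 without replicate 2.

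**Figure D1:**
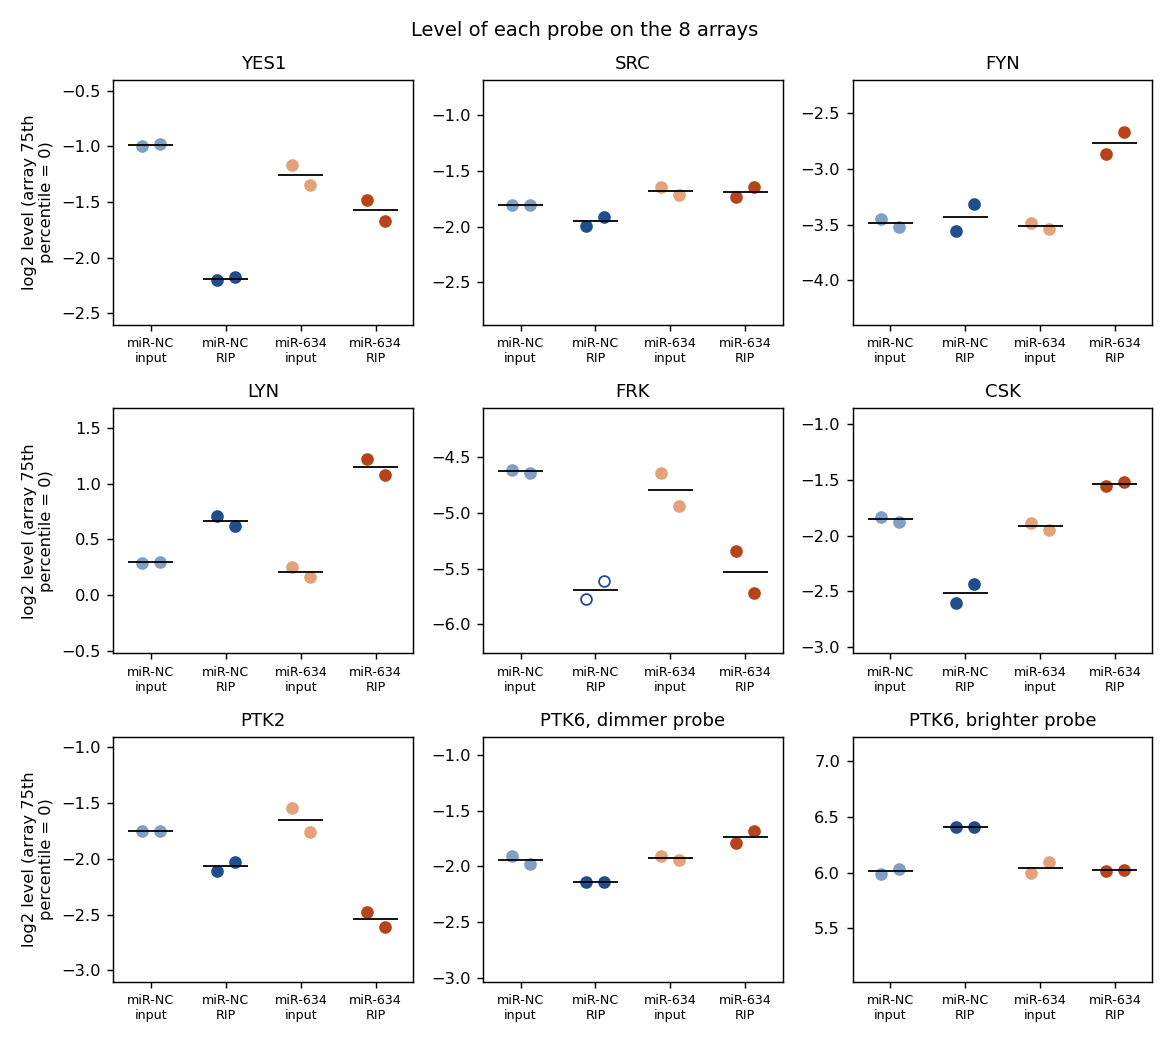
Log2 level of each of the 9 probes on the 8 arrays (y axis, 0 is the array's 75th percentile) by group (x axis). Each point is 1 array, each line the mean of the 2 arrays of a group, and open points were not well above background. All panels span the same log2 range. In the RIP, CSK, FYN, LYN and YES1 lie higher with miR-634 than with miR-NC, PTK2 lies lower, and the PTK6 probes run in opposite directions.

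YES1, a broadly made member of the family, had the lowest enrichment of the 7 measured genes in miR-NC cells. In the input its log2 level was -1.0 and -0.98 with miR-NC and -1.17 and -1.35 with miR-634. In the RIP it was -2.20 and -2.17 with miR-NC and -1.48 and -1.67 with miR-634. The 2 RIP groups did not overlap, and both RIP groups lay below both input groups. The input difference of miR-634 cells from miR-NC cells was -0.27 on the log2 scale (95% interval -0.47 to -0.06), with no overlap between the input groups, and -0.18 without miR-634 input replicate 2. The RIP level was higher by 0.61 (0.41 to 0.82). Enrichment was thus -1.2 (SE 0.084) in miR-NC cells and -0.32 (SE 0.084) in miR-634 cells, and its log2 fold change was 0.88 (SE 0.12, 95% interval 0.59 to 1.17). Of this difference, the RIP part was the larger. The 95% intervals of YES1 are for 1 gene, without adjustment over the measured genes, and are not read as tests. The enrichment of YES1 stayed under 0 after miR-634, and 84.9% of all measured genes had a lower fold change of enrichment.

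SRC, the kinase that gave the family its name, did not pass the test for its fold change of enrichment. It read -1.81 and -1.80 in the miR-NC input, -1.99 and -1.91 in the miR-NC RIP, -1.65 and -1.71 in the miR-634 input and -1.73 and -1.64 in the miR-634 RIP, as log2 levels. The arrays of miR-634 cells lay above those of miR-NC cells in both kinds of RNA. The RIP level rose by 0.27 (SE 0.056, adjusted p = 0.0044), while the input difference was 0.12 (SE 0.056, adjusted p = 0.16). The fold change of enrichment was 0.14 (SE 0.079, adjusted p = 0.15), and its 95% interval ran from -0.05 to 0.33.

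FYN is a broadly made kinase that acts downstream of integrins. Log2 levels of FYN were -3.45 and -3.52 in the miR-NC input, -3.55 and -3.31 in the miR-NC RIP and -3.49 and -3.54 in the miR-634 input. It was -2.87 and -2.67 in the miR-634 RIP, the only group that stood apart, since the other 3 overlapped. The input difference was -0.03 (SE 0.099, adjusted p = 0.86). Enrichment rose from 0.05 (SE 0.099) in miR-NC cells to 0.75 (SE 0.099) in miR-634 cells, a log2 fold change of 0.70 (SE 0.14, adjusted p = 0.0042), and with spike-in scaling both levels were under 0 (-2.47 and -0.69). Under the methods' t-test the adjusted p was 0.11. That test takes the spread from this gene alone and, unlike the limma fit, pairs RIP and input by array number.

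LYN, the family member best known from blood cells, was enriched with AGO2 in both kinds of cells by the percentile scaling, though not with spike-in scaling (-0.50 with miR-634). Its log2 level was 0.29 on both miR-NC input arrays and 0.25 and 0.16 on the miR-634 input arrays. It was 0.71 and 0.62 in the miR-NC RIP and 1.22 and 1.08 in the miR-634 RIP. The RIP groups did not overlap with each other or with the inputs. Over all measured genes 30.9% rose and 46.5% fell in the RIP by limma, so a RIP difference alone does not set LYN apart. Enrichment was 0.37 (SE 0.066, adjusted p = 0.0020) in miR-NC cells and 0.94 (SE 0.066, adjusted p = 1.4e-05) in miR-634 cells. The log2 fold change of enrichment was 0.57 (SE 0.094, adjusted p = 0.0017), with an input difference of -0.09 (SE 0.066, adjusted p = 0.40).

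CSK, the inhibitor of the family, showed the largest fold change of enrichment of the 7 measured genes. Its log2 level was -1.83 and -1.87 in the miR-NC input and -1.88 and -1.95 in the miR-634 input, an input difference of -0.06 (SE 0.066, adjusted p = 0.54). It was -2.60 and -2.43 in the miR-NC RIP and -1.56 and -1.51 in the miR-634 RIP. The miR-NC RIP arrays were the lowest of the 8 and the miR-634 RIP arrays the highest. Enrichment was -0.67 (SE 0.066, adjusted p = 0.00011) in miR-NC cells and 0.38 (SE 0.066, adjusted p = 0.0014) in miR-634 cells. Its zero is set by the percentile scaling, and with spike-in scaling CSK stood at -3.19 and -1.06, under 0 in both. The log2 fold change was 1.05 (SE 0.093, adjusted p = 0.00010), above that of 87.4% of all measured genes. The 95% intervals of CSK (0.82 to 1.27) and YES1 (0.59 to 1.17) overlapped. YES1 is in the study's final target list and CSK is not. That list also required lower protein after miR-634, and CSK is not in the study's list of genes lower in its protein data. Its absence there does not show whether CSK protein was measured. LYN is in the list of genes lower in protein but not in the final target list.

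PTK2, the focal adhesion kinase, fell in enrichment and in the RIP, but with spike-in scaling these log2 values were 0.51 (adjusted p = 0.0833) and 0.39 (adjusted p = 0.0624). Its level was -1.75 on the log2 scale on both miR-NC input arrays and -1.55 and -1.76 on the miR-634 input arrays. It was -2.11 and -2.03 in the miR-NC RIP and -2.47 and -2.61 in the miR-634 RIP. The input groups overlapped (difference 0.10, SE 0.085, adjusted p = 0.46), and the miR-634 RIP arrays were the lowest of all. Enrichment fell from -0.32 (SE 0.085, adjusted p = 0.013) in miR-NC cells to -0.89 (SE 0.085, adjusted p = 6.5e-05) in miR-634 cells, and its log2 fold change was -0.57 (SE 0.12, adjusted p = 0.0050). The median gene stood at -0.22, and 28.3% of all measured genes had a lower value than PTK2.

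PTK6, a kinase typical of epithelia, gave no single answer because its probes, both assigned to NM_005975, disagreed. On miR-NC input replicate 1 the brighter had an intensity of 184700 and the dimmer of 772. Probe sequences were not used, so which of them reports PTK6 was not examined. The brighter probe, which stood for the gene, read 5.99 and 6.03 in the miR-NC input, 6.41 and 6.41 in the miR-NC RIP, 5.99 and 6.09 in the miR-634 input and 6.01 and 6.03 in the miR-634 RIP. Only its miR-NC RIP arrays stood apart. The dimmer probe read -1.91 and -1.98, -2.14 and -2.14, -1.90 and -1.94, and -1.79 and -1.68 in the same order of groups. By this probe the miR-NC RIP arrays were the lowest and the miR-634 RIP arrays the highest. In a limma fit over the 16810 measured probes, the log2 fold change of enrichment was -0.42 (SE 0.074, adjusted p = 0.0025) for the brighter and 0.38 (SE 0.081, adjusted p = 0.0060) for the dimmer probe, and 68.4% of all probes changed in either direction. The RIP change was -0.39 (SE 0.053, adjusted p = 0.00057) and 0.40 (SE 0.057, adjusted p = 0.00075), against 76.0% of all probes. With the mean of both probes the gene stood at -0.02 (adjusted p = 0.77), so the count of genes that fell in enrichment is 2 with the brighter probe and 1, PTK2, with the mean.

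FRK, the other epithelial relative, was well above background on the 4 input and the 2 miR-634 RIP arrays but on neither miR-NC RIP array, so there only a bound exists. The log2 level of FRK was -4.62 and -4.64 in the miR-NC input and -4.64 and -4.94 in the miR-634 input. It was -5.34 and -5.72 in the miR-634 RIP, and the miR-NC RIP arrays read -5.77 and -5.61. For the bound, the lowest level of a probe well above background on each miR-NC RIP array was taken where it exceeded the reading of FRK, which gave a mean of -5.37. The input level of FRK in miR-NC cells was therefore at least 1.67-fold its RIP level, and in miR-634 cells the input was 1.67-fold the RIP. No fold is given for its RIP change, because the miR-634 RIP mean minus that bound was -0.17 on the log2 scale.

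**Figure D2:**
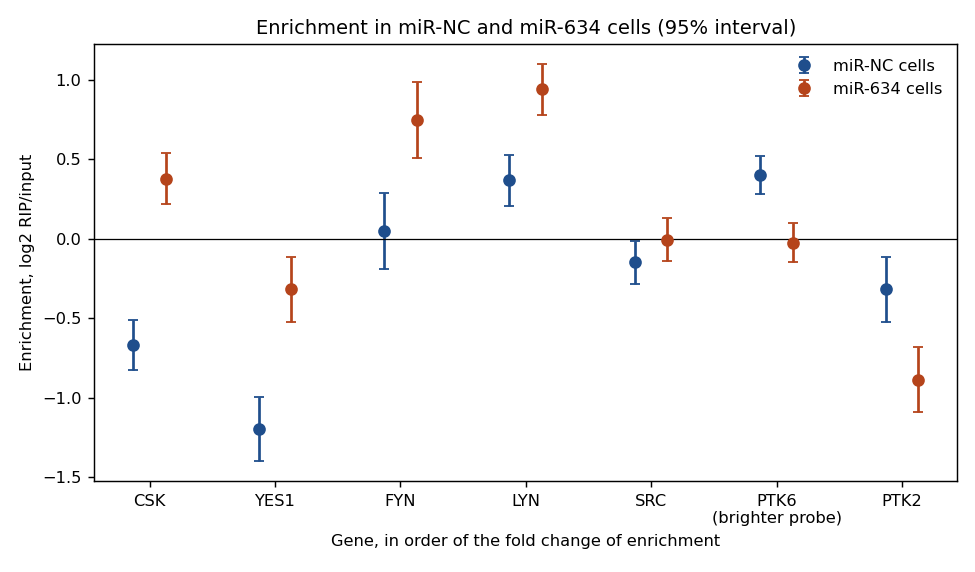
Enrichment (log2 RIP/input, y axis) of the 7 measured genes (x axis) in miR-NC cells (blue) and miR-634 cells (red), with points as means of 2 arrays per group and bars as 95% intervals from limma. CSK goes from -0.67 to 0.38 (from -3.19 to -1.06 with spike-in scaling), YES1 stays under 0 in both kinds of cells, and PTK2 goes from -0.32 to -0.89 (from -2.84 to -2.33 with spike-in scaling).

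By kind of cell, the 6 tested genes were mixed. In miR-NC cells, 2 were enriched with AGO2 (LYN, and PTK6 by its brighter probe), against 33.5% of all measured genes, and 3 were depleted (CSK, PTK2 and SRC), against 45.3%. The dimmer probe of PTK6 was depleted (-0.19, SE 0.057, adjusted p = 0.0205 in the fit over probes), and under quantile normalization without and with normexp the gene stood at -0.078 and -0.109. The call for SRC (-0.15, SE 0.056, adjusted p = 0.046) was lost in most alternatives, and that for PTK2 was lost without either miR-NC input array or without miR-NC RIP replicate 1 (adjusted p 0.051 to 0.056). In miR-634 cells, 3 were enriched (LYN 1.92-fold, FYN 1.68-fold and CSK 1.30-fold), against 36.1% of all measured genes. PTK2 alone was depleted among the 6, at 0.541-fold, against 48.3%. SRC stood at -0.01 (95% interval -0.14 to 0.13) and PTK6, by its brighter probe, at -0.02 (-0.14 to 0.10). With spike-in scaling 0 of the 6 were enriched and 6 depleted in each kind of cell.

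The RIP level itself changed in all 6 tested genes. It rose in 4 (CSK 1.98-fold, FYN 1.59-fold, LYN 1.40-fold and SRC 1.2-fold), against 30.9% of all measured genes, and fell in 2 (PTK2 to 0.719-fold and PTK6, by its brighter probe, to 0.763-fold), against 46.5%. By its dimmer probe PTK6 rose (log2 0.40, adjusted p = 0.00075 in the limma fit over probes). With spike-in scaling 5 rose and 0 fell, with PTK2 at 0.39 and PTK6 at 0.48 on the log2 scale. With the methods' t-test and the same adjustment, the rise of CSK and the fall of PTK6 were still called. The adjusted p was then 0.080 for SRC, 0.082 for FYN, 0.054 for LYN and 0.052 for PTK2.

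Ordered by fold change of enrichment, the genes ran from CSK (1.05) and YES1 (0.88) through FYN (0.70), LYN (0.57) and SRC (0.14) to PTK6 by its brighter probe (-0.42) and PTK2 (-0.57). By its dimmer probe (0.38) PTK6 would lie between LYN and SRC, and by the mean of its probes it lay at -0.02. Neighbors from CSK to LYN had overlapping 95% intervals, as had the brighter probe of PTK6 and PTK2. The interval of LYN (0.35 to 0.80) did not reach those of CSK and SRC, and that of SRC did not reach that of the brighter PTK6 probe (-0.59 to -0.25).

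**Figure D3:**
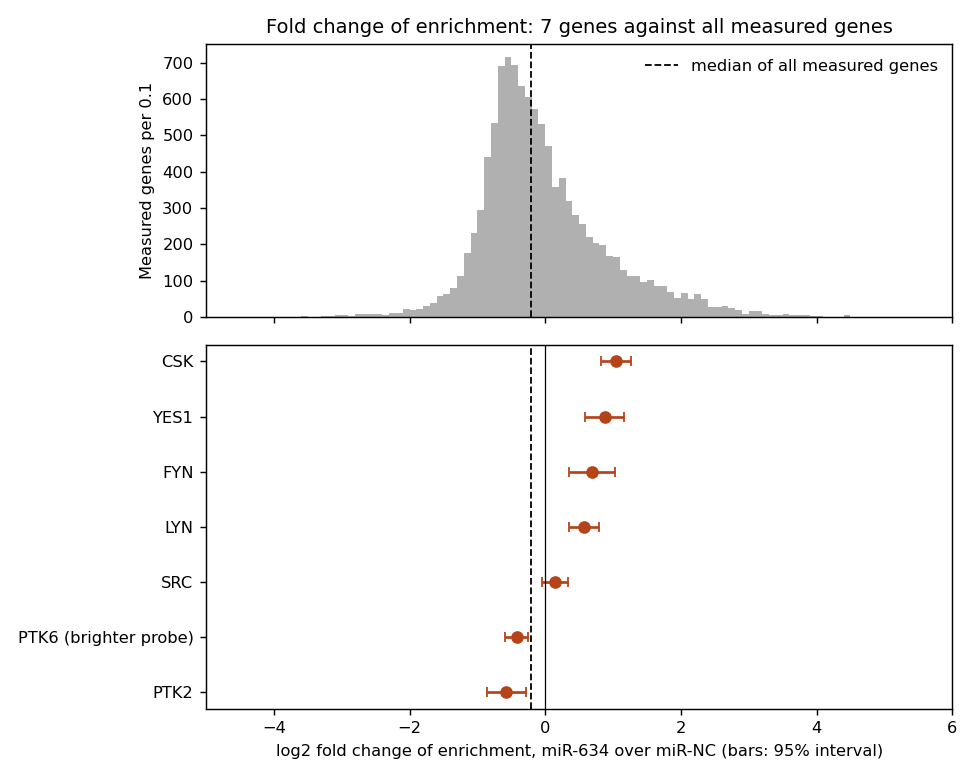
Upper panel: number of measured genes per 0.1 of log2 fold change of enrichment (x axis), with the median of all 10961 genes at -0.22 as a dashed line. Lower panel: the 7 genes on the same axis, with 95% intervals from limma. CSK, YES1, FYN, LYN and SRC lie to the right of the median, and PTK2 and the brighter probe of PTK6 to the left (both above 0 with spike-in scaling), all within the body of the distribution.

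Part of these directions depended on the scale. With the arrays scaled to 7 spike-in controls, the median of all genes moved from -0.22 to 0.87, and the calls went from 3082 higher and 4726 lower to 7383 and 193. PTK6 was then called higher, at 0.66 (adjusted p = 0.0249), as was SRC, at 1.23 (adjusted p = 2.35e-05), and PTK2 stood at 0.51 without passing the test (adjusted p = 0.0833). For the RIP change the same scaling gave 7417 higher and 378 lower in place of 3385 and 5100. The authors' processed values gave 4047 and 3723, and the percentile over all probes 4050 and 3714. In the input the calls were 1266 higher and 1330 lower, against 1071 and 664 with the authors' values, 1070 and 658 with the percentile over all probes and 33 and 865 with the spike-in controls. For RIP/input the spike-in controls gave 63 higher and 10745 lower in miR-NC cells in place of 3677 and 4967, and 728 and 9180 in miR-634 cells in place of 3962 and 5290. Relative to the median gene, a measure that a shift of whole arrays or another test cannot move, the fold change of enrichment over 21 settings ran from 1.06 to 1.52 for CSK, 0.94 to 1.35 for YES1, 0.66 to 1.17 for FYN, 0.66 to 1.05 for LYN and 0.30 to 0.62 for SRC. It ran from -0.46 to -0.10 for PTK2 and from -0.26 to 0.19 for PTK6. CSK, YES1, FYN, LYN and SRC were thus above the median gene and PTK2 below it in each of these settings, and PTK6 was on both sides.

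The study took the fold change of XIAP, an inhibitor of apoptosis and known miR-634 target, as its cutoff of enrichment. YES1 lay close to this cutoff, and targets also had to be lower in the study's protein data. XIAP had 2 probes measured on all arrays, and the dimmer one was weak, with a mean log2 level of -4.59 in the miR-NC RIP. With the brighter one its fold change of enrichment was 1.37-fold, and with the dimmer one 1.73-fold, against 1.84-fold for YES1. In the authors' processed values these were 1.48-fold, 1.88-fold and 1.99-fold. The fold that the study printed for XIAP lay just above YES1 in the scaling used here and below YES1 in the authors' processed values. The gap of YES1 to the higher probe was 0.087 on the log2 scale in 5 of 7 normalizations, which only shift whole arrays or probes and so cannot move it. It was 0.005 with quantile normalization and 0.30 with normexp and quantile normalization. Since the study chose YES1 by this cutoff, its place above XIAP is a description. The gap in the scaling used here (0.88 against 0.79) was smaller than the SE of YES1 (0.12) or of that XIAP probe (0.23). CSK had a higher fold change of enrichment than YES1 here, and FYN (1.62-fold) and LYN (1.49-fold) lay between the XIAP probes.

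**Figure D4:**
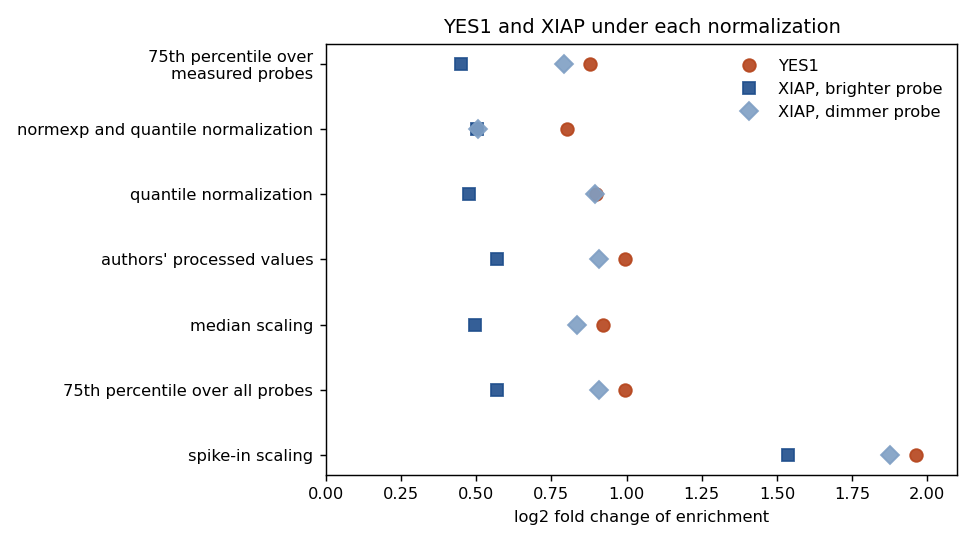
Log2 fold change of enrichment (x axis) of YES1 (circles) and of the brighter (squares) and dimmer (diamonds) probe of XIAP under 7 normalizations (y axis), without error bars. The dimmer XIAP probe was weak, with a mean log2 level of -4.59 in the miR-NC RIP. The gap between YES1 and the higher XIAP probe is 0.087 in the 5 that only shift arrays or probes and cannot move it, 0.30 with normexp and quantile normalization, and 0.005 with quantile normalization alone, where the symbols coincide.

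Among all measured genes, those whose 4 group means ran most like YES1 were sought by the Euclidean distance of the means, each gene centered on its own mean. Among the 5 closest of 10960 were TRMT11, ARPIN, ZNF674-AS1 and TGDS, at distances of 0.074 to 0.10 on the log2 scale. Their fold changes of enrichment ran from 0.75 to 1.06. Within the set, CSK was closest to YES1, but at 0.68. FYN and LYN were each other's closest gene of the set (0.29). The closest gene of all was GPN2 for SRC (0.032), CDH24 for FYN (0.049), TWF2 for LYN (0.026), OSTF1 for CSK (0.045), SARS2 for PTK2 (0.032) and HBZ for the brighter probe of PTK6 (0.019).

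Genes that act on SRC family kinases were taken next. Of 12 such regulators, 9 were measured: 4 fell in enrichment (PTPN1, PTPRA, CBLB and CBLC), 0 rose by limma (0 also at an unadjusted p under 0.05 and 0 by the methods' t-test) and 5 did not pass the test. Over all measured genes 43.1% fell and 28.1% rose. The median of the 9 was -0.26 beside -0.22 over all genes, and with spike-in scaling 5 were called higher and 0 lower, with these 4 genes above 0. PTPN1, a phosphatase that can remove the inhibitory phosphate of SRC, fell to 0.537-fold in enrichment (log2 -0.90, SE 0.075, adjusted p = 7.8e-05). It also had the largest input change of the list, a rise of 0.60 (SE 0.053, adjusted p = 0.0011), and its RIP level fell by 0.30. The receptor phosphatase PTPRA, another activator of the family, fell to 0.625-fold (adjusted p = 9.1e-05), and the ubiquitin ligase CBLB to 0.662-fold (adjusted p = 0.0018). CBLC, a ubiquitin ligase of epithelial cells, had the largest RIP change of the list (-0.58, SE 0.071, adjusted p = 0.00032). In the input, 4 of the 9 regulators rose and 0 fell by limma (5 and 0 at an unadjusted p under 0.05, 1 and 0 by the methods' t-test, and 0 and 0 with spike-in scaling), against 11.6% and 12.1% of all measured genes, with a median of 0.22 beside -0.01 over all genes. Without miR-NC input replicate 1 or 2 the number that rose was 1, and without miR-634 input replicate 1 or 2 it was 2. In the RIP 1 rose and 4 fell, against 30.9% and 46.5%, and with spike-in scaling 8 rose.

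Of 22 substrates and adhesion partners, 19 were measured. In enrichment 8 rose, 3 fell and 8 did not pass the test, against 28.1% and 43.1% of all measured genes that rose and fell, with a median of 0.03 beside -0.22 over all genes, and with spike-in scaling 17 rose. Among the genes that passed the test, the largest changes were those of DOCK1, BCAR1 and PXN, all of them upward, and TLN1 stood at -1.1 (SE 0.99) without passing. BCAR1 (p130Cas) is the adhesion scaffold that SRC phosphorylates, and DOCK1 is the RAC activator that is recruited to it through CRK. DOCK1 rose 3.31-fold in enrichment (log2 1.73, SE 0.090, adjusted p = 1.0e-05). Its input fell by 0.56 (SE 0.063, adjusted p = 0.0023), the largest input change of the list. DOCK1 was dim, with a mean log2 level of -4.45 in the miR-NC RIP. With normexp and quantile normalization its log2 fold change of enrichment was 1.14, below the 1.18 of BCAR1, and its input difference -0.36. BCAR1 rose 2.19-fold in enrichment (adjusted p = 3.6e-05) and had the largest RIP change of the list (1.33, SE 0.056, adjusted p = 2.5e-06). PXN (paxillin), another adhesion scaffold, rose 2.06-fold by the brighter of 2 probes (log2 1.05, adjusted p = 1.5e-05), with an input difference of -0.09 (adjusted p = 0.17). With the mean of its probes the log2 value of PXN was 0.63, below the 0.82 of VCL, the adhesion protein vinculin. In the input 4 of the 19 rose and 3 fell, against 11.6% and 12.1%, and with spike-in scaling 0 and 3. The number that rose in the input was 1 with the replicate block, 0 without miR-NC input replicate 2, and 1 without miR-NC input replicate 1 or either miR-634 input array. In the RIP 9 rose and 4 fell, against 30.9% and 46.5%, and with spike-in scaling 17 rose. The methods' t-test called 3 higher and 3 lower in enrichment, 4 higher and 5 lower in the RIP and 0 in the input, where in either direction it called 47.9%, 50.2% and 3.13% of all measured genes.

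Of 7 other SRC-related kinases, most of them kinases of blood cells such as LCK, only PTK2B was well above background on all 8 arrays. PTK2B, the kinase most like PTK2, had a log2 fold change of enrichment of -0.24 (SE 0.14, adjusted p = 0.18). By the percentile scaling it was enriched with AGO2 in both kinds of cells, by 0.61 (SE 0.10, adjusted p = 0.0015) with miR-NC and by 0.37 (SE 0.10, adjusted p = 0.013) with miR-634. The same was called for 33.5% and 36.1% of all measured genes. With spike-in scaling 63 and 728 of all genes were called enriched in miR-NC and miR-634 cells.

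**Figure D5:**
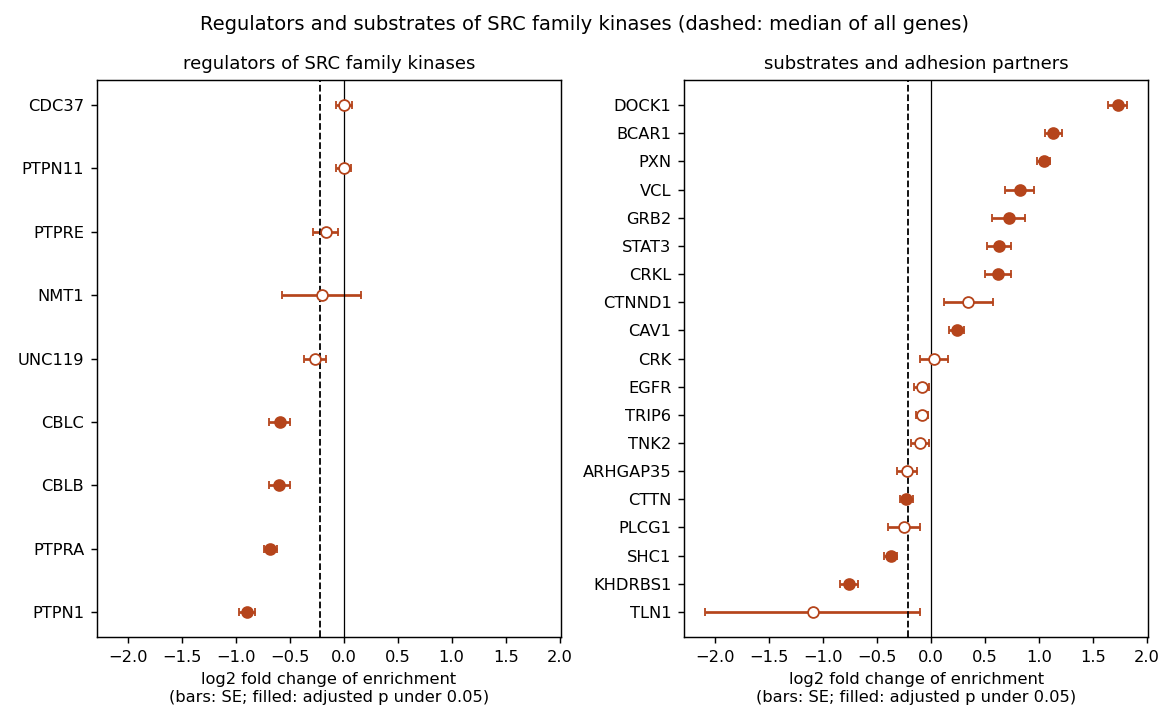
Log2 fold change of enrichment (x axis, bars are SE) of the 9 measured regulators and the 19 measured substrates and adhesion partners of SRC family kinases (y axis). Filled points passed the test, open points did not, and the dashed line is the median of all measured genes (-0.22). DOCK1, BCAR1 and PXN lie farthest to the right, and PTPN1 lies farthest to the left among the regulators. With spike-in scaling PTPN1 lies at 0.19.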

How the data were processed

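Cells of the A431 line with miR-NC or miR-634 were measured by RIP-chip, and the sample labels put the 8 arrays into 4 groups of 2. The authors deposited the intensity of every spot from Agilent Feature Extraction (12.0.1.1 in the file headers, 9.1 in the submitters' processing notes), with background subtracted and no normalization between arrays. A table of processed log2 values was also deposited by the authors. It matched log2 intensity less the array's 75th percentile of all probes, with each probe centered on its median (r = 0.999997, 16810 probes), and served as an alternative. The array medians of that table ran from -0.44 to 0.87.

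Here, control and outlier spots were dropped, spots of a probe were averaged, log2 was taken, and the 75th percentile of the 16810 probes (28.9% of all) well above background on all 8 arrays was subtracted from each array. The brightest such probe stood for a gene. A RefSeq accession was given for 33080 probes, and the RefSeq table of GRCh38.p14 named the gene of 31102. The array design is on hg19, so gene coordinates are not given. Depth has no meaning for arrays, and their number limits the precision.

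Groups were compared by limma 3.58.1 under R 4.3.3, with lmFit on group means, eBayes, Benjamini-Hochberg adjustment over 10961 genes and a threshold of 0.05. The scripts were tested on simulated data. Genes named are the 8 genes with every probe, XIAP, the 3 genes of each list with the largest called change of enrichment and the list's largest called input and RIP change, and the genes with the closest group means (5 for YES1 and 1 for each other measured gene), of which 1 is not reported here. Markers, CBLC where a count of 4 is spelled out, and TLN1 and VCL, chosen after their values were seen, stand beside these. The genes and lists were chosen with earlier results of these data known.

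Alternatives were the authors' values, quantile normalization without and with normexp (offset 50), scaling by the median, by the percentile of all probes or by spike-in controls, no filter or a filter on the input arrays alone, probe means, an intensity trend, a replicate block, the methods' t-test and leaving out each of the 8 arrays. Since 1 slide and 1 scan held all arrays, no slide block could be fitted. Python 3.11.15 with pandas 2.3.3, numpy 2.4.6 and matplotlib 3.10.9 made tables and plots. The proteomic and animal data of the study were not analyzed here.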

Additional observations from a re-analysis of the deposited data

Results flagged for a closer look

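For 5 genes the difference between RIP and input itself differed between miR-634 and miR-NC cells, by the limma interaction term. These log2 values were 1.05 for CSK, 0.70 for FYN, 0.57 for LYN, -0.57 for PTK2 and -0.42 for PTK6 by its brighter probe, while the dimmer probe of PTK6 gave 0.38. With spike-in scaling PTK2 stood at 0.51 and PTK6 at 0.66. In all, 28.1% of the measured genes rose and 43.1% fell by the same term.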

How the results depend on the processing

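The comparisons were repeated under 20 alternatives, which for the 6 tested genes gave 115 values of the fold change of enrichment with the direction and side of the threshold of the main value, 2 reversed, 2 weaker and 1 stronger. Spike-in scaling moved most: the log2 fold change of enrichment was then 0.51 for PTK2 and 0.66 for PTK6, 5 of the 6 genes rose and 0 fell, and over all genes 7383 rose and 193 fell. It gave a RIP change of 0.39 for PTK2 and 0.48 for PTK6 with 0 genes lower, and an input difference of -0.10 for SRC, -0.125 for PTK2 and -0.19 for PTK6. It turned RIP/input in miR-NC cells to -2.47 for FYN, -2.155 for LYN and -2.125 for PTK6 (0 genes higher and 6 lower), and in miR-634 cells to -0.69 for FYN, -0.50 for LYN and -1.059 for CSK (0 higher and 6 lower). With no filter 8652 of all genes fell in enrichment. With the methods' t-test 2962 of all genes fell. That test called 1 of the 6 genes higher and 1 lower in the RIP.

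With the mean of probes, 1 of the 6 genes fell in enrichment and 1 in the RIP, 1 was higher in the miR-NC RIP than in its input, and PTK6 stood at 0.006 for the RIP change and 0.082 for RIP/input in miR-634 cells. Normexp with quantile normalization left 1 gene lower in the RIP. This setting and quantile normalization alone left 1 gene higher and put PTK6 at -0.109 and -0.078 for RIP/input in miR-NC cells, and called 2 genes lower in miR-634 cells. Quantile normalization also called 1 gene, PTK6, higher in the input. Differences that did not pass the test changed sign around 0. The input difference of FYN was 0.012 with normexp, 0.009 with quantile normalization, 0.025 with the authors' values and 0.026 with the percentile over all probes. RIP/input of SRC in miR-634 cells was 0.064 with normexp, 0.066 with quantile normalization, 0.101 with the authors' values, 0.088 with median scaling and 0.102 with the percentile over all probes. For PTK6 the last 3 gave 0.084, 0.07 and 0.085. The cause of these changes was not tested.

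With each array left out in turn, the genes lower in the miR-NC RIP than in the input numbered 1 to 3. Input differences ran from -0.065 to 0.005 for FYN, -0.012 to 0.20 for PTK2 and -0.016 to 0.082 for PTK6. RIP/input with miR-NC ran from -0.069 to 0.172 for FYN, and with miR-634 from -0.051 to 0.039 for SRC and -0.073 to 0.026 for PTK6. Deviations of like-numbered arrays from their group means were weakly correlated over all measured genes (r from -0.04 to 0.08). The highest values were those of input and RIP of the same cells (0.074 with miR-NC and 0.084 with miR-634). A weak r over all genes does not show whether the arrays were paired. For the fold change of enrichment, the methods' t-test paired RIP and input by array number, and the main limma fit did not. With a replicate block, 3 of the 6 genes rose and 2 fell in enrichment as without it, and the RIP/input of SRC in miR-NC cells (-0.15) was no longer called (adjusted p = 0.062). The methods' t-test had an unadjusted p of at most 0.05 for the fold change of enrichment of 6525 genes, 4 of the 6 among them, and 5245 after adjustment. Signal over background limits FRK.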
